A study of Mus musculus with 12 samples.

Results

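Hepcidin and the iron handling genes of the liver were followed as a group of 10 genes, taken by name from the list *Hamp*, *Hamp2*, *Tfrc*, *Tfr2*, *Trf*, *Fth1*, *Slc40a1*, *Bmp6*, *Id1* and *Scara5*, among the 24532 genes of the deposited expression table. Messenger RNA was sequenced from 12 livers of male C57BL/6 mice, aged 10 to 12 weeks at the start, in 4 groups of 3 mice. WT mice on a control liquid diet (WT+con), WT mice on the Lieber-DeCarli ethanol liquid diet (WT+EtOH), *Ahr* HKO mice on the control diet (*Ahr* HKO+con) and ethanol-fed *Ahr* HKO mice (*Ahr* HKO+EtOH) received these diets for 5 weeks. The 3 mice of each group were drawn at random from larger groups. All mice carried the floxed *Ahr* fl/fl alleles. *Ahr* HKO mice carried the *Alb-Cre* transgene in addition, which deletes the floxed second exon of *Ahr*, the gene of the aryl hydrocarbon receptor, in cells that express the albumin promoter, mainly hepatocytes. The WT mice were littermates without Cre. Whole liver was used, so the RNA also holds that of cells in which the transgene is not active.

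Hepcidin is a peptide hormone that hepatocytes release into the blood, where it binds the iron exporter ferroportin and causes its removal from the cell surface. Its gene is switched on by bone morphogenetic protein signals that endothelial cells send according to iron load, acting through SMAD proteins, and by interleukin-6 through STAT3. Cells adjust the uptake and storage of iron through iron regulatory proteins. When iron is scarce these bind hairpins called iron-responsive elements, which blocks the translation of messengers that carry the hairpin ahead of the coding sequence and protects from decay the transferrin receptor messenger, which carries it behind. Alcohol feeding is a known setting of disturbed hepcidin expression and hepatic iron.

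Mice carry a pair of neighbouring hepcidin genes, *Hamp* (chr7:30942368-30944029) and *Hamp2* (chr7:30922372-30924181, both GRCm38, minus strand). Their upstream windows are shown so that the regulatory stretches of the pair can be compared. Each window runs from 250 bases before to 50 bases after the annotated start in RefSeq on GRCm38.p6, is written 5′ to 3′ on the minus strand, and has in capitals the letters GGCGCC, the core of the BMP response element, and the STAT-type letters TTCNNNGAA.
Hamp, chr7:30943980-30944279: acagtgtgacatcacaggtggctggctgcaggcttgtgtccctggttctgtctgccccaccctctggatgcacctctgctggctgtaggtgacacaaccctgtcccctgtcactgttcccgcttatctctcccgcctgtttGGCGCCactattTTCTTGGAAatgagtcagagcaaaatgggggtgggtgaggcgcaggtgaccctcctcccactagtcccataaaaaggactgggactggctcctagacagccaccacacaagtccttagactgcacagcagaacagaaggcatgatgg
Hamp2, chr7:30924132-30924431: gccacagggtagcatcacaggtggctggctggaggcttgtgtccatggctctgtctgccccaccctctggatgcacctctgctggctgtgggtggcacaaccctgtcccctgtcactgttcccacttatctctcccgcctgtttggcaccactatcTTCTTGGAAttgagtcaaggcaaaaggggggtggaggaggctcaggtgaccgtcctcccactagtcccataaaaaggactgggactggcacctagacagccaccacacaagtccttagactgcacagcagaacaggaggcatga

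The windows aligned over 297 positions without a gap and were identical at 276 of them, which is 92.9%. Counted from the first base of the *Hamp* window, GGCGCC began at base 142 of *Hamp*, and *Hamp2* lacked it, with the substitution G145A inside it. The letters TTCTTGGAA stood in both windows, at base 154 of *Hamp* and base 157 of *Hamp2*. On either strand, GGCGCC was found in 11.9% of all RefSeq promoter windows of this length and TTCNNNGAA in 8.30%. Among the members with a window, GGCGCC also stood in a window of *Tfrc*, at base 162, and TTCNNNGAA in the hepcidin windows alone. The letters GCGTG, the core of the sequence that the aryl hydrocarbon receptor binds, stood in 32.4% of all windows, in at least 1 window each of *Tfr2*, *Bmp6*, *Tfrc* and *Fth1*, and in neither hepcidin window. The motifs were searched separately and could overlap. The sequence table held windows for 6 of the 10 genes. A match of so few letters describes the sequence and does not by itself show that a protein binds there.

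Iron-responsive elements were looked for in the untranslated regions of the GENCODE M21 transcripts, as the loop CAGTGN between 5 paired bases, with an unpaired C below and at least 4 further pairs. They were found in 17 of 21877 protein-coding genes, which is 0.0777%, and 3 of these were *Fth1*, *Slc40a1* and *Tfrc*. The elements are shown because they set these members apart from the other 7 by sequence, together with that of *Ftl1*, which encodes the partner chain of ferritin. Each is written 5′ to 3′ on GRCm38 with the loop in capitals.
Fth1, chr19:9982732-9982760, plus strand, 5′ UTR: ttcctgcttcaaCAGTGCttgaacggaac
Ftl1, chr7:45459779-45459807, minus strand, 5′ UTR: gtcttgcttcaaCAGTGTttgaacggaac
Slc40a1, chr1:45925465-45925493, minus strand, 5′ UTR: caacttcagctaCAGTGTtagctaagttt
Tfrc element 1, chr16:32631219-32631247, plus strand, 3′ UTR: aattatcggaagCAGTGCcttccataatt
Tfrc element 2, chr16:32631598-32631626, plus strand, 3′ UTR: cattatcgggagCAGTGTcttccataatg
Tfrc element 3, chr16:32631663-32631691, plus strand, 3′ UTR: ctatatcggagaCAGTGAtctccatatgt
Tfrc element 4, chr16:32631710-32631738, plus strand, 3′ UTR: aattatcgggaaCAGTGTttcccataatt

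The elements found in *Fth1*, *Ftl1* and *Slc40a1* lay in the 5′ UTR, and the 4 found in *Tfrc* in its 3′ UTR. Elements that depart from the searched pattern were not counted, so these genes and others may carry more.

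Each liver gave between 46306518 and 74336255 reads on genes. Expression is given as CPM, read counts brought to a common library size with the TMM factors that edgeR computed, and a difference as log2 FC with its standard error (SE). DEGs had a Benjamini-Hochberg adjusted *P* value under 0.05 in the quasi-likelihood test of edgeR over 14038 tested genes. All 10 genes passed the filter on low counts. The *Ahr* read count, which covers the whole gene and not the floxed exon alone, was higher in *Ahr* HKO livers on the control diet (65.5, 41.3 and 63.3 CPM) than in WT livers (20.1, 16.6 and 18.3 CPM), so it does not check the deletion, and the groups are used as labelled. *Cyp1a2*, a target gene of the receptor, measured 90.7, 112 and 258 CPM in *Ahr* HKO+con and 617, 398 and 456 CPM in WT+con (log2 FC -1.67 ± 0.40, adjusted *P* = 0.0191). On ethanol it measured 629, 684 and 658 CPM in *Ahr* HKO, above every WT+con liver, and 1212, 1061 and 992 CPM in WT (log2 FC -0.73 ± 0.12, adjusted *P* = 0.0457). Ethanol raised *Cyp1a2* 4.28-fold in *Ahr* HKO (adjusted *P* = 0.00837) and 2.22-fold in WT (adjusted *P* = 0.0142). Its level does not by itself check the deletion either. The summed CPM of 8 hepatocyte markers was 91142 to 100090.5 in WT+con and within 89599 to 120597, 95019 to 142151 and 113249 to 120798 in the other groups, and none was at 0 in any liver. In whole liver, fewer cells of a type and less RNA per cell cannot be told apart.

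Per gene length, as FPKM, the levels over the 12 livers spanned several orders of magnitude. *Trf*, the gene of the plasma iron carrier transferrin, was highest with 4906 to 7521 FPKM and its range overlapped no other. *Fth1* (1567 to 4266 FPKM) and *Hamp* (211 to 3367 FPKM) followed with overlapping ranges. *Tfr2* (100.4 to 141 FPKM) lay below the range of *Hamp*. *Hamp2* (3.10 to 165 FPKM), *Slc40a1* (12.7 to 70.3 FPKM), *Scara5* (0.0666 to 31.7 FPKM), *Id1* (2.03 to 9.06 FPKM), *Tfrc* (1.21 to 6.64 FPKM) and *Bmp6* (0.722 to 2.18 FPKM) came next by mean, and each of these overlapped its neighbour in the order. The spread between livers differed as much as the level. *Trf* and *Tfr2* varied 1.53-fold and 1.57-fold in CPM between the lowest and highest liver, *Hamp* 15.6-fold, *Hamp2* 49.5-fold and *Scara5* 561-fold.

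**Figure D1:**
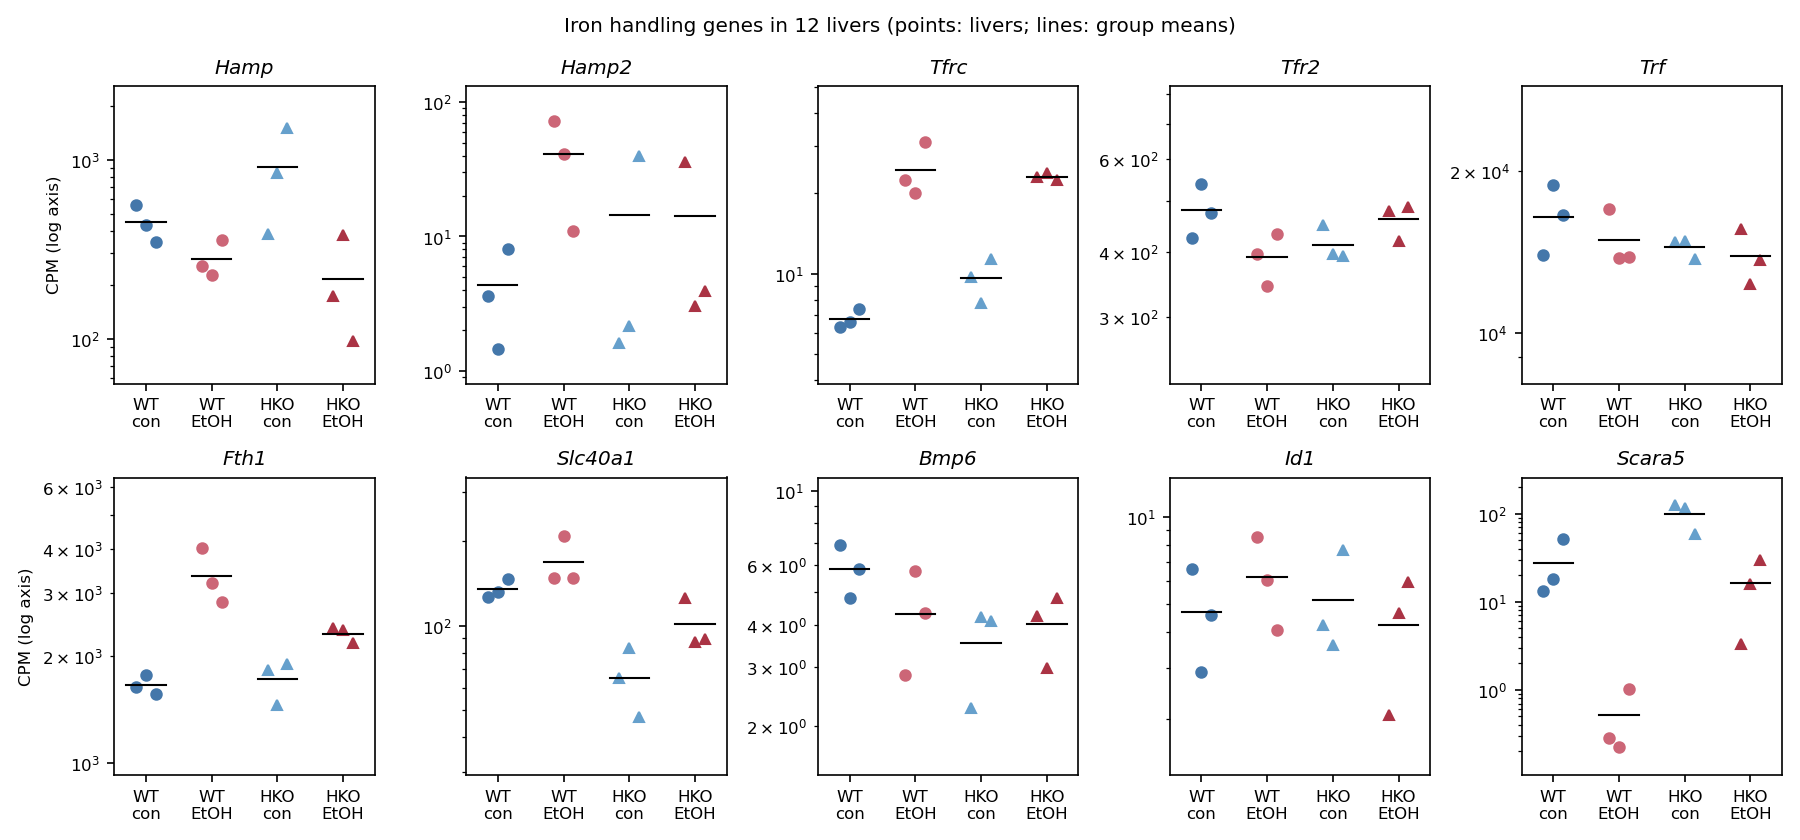
Expression of the 10 genes in each liver, in CPM on a log axis that differs between panels, with the 4 groups on the horizontal axis, a point per liver and a line at the group mean. The ethanol livers lay above the control livers of the same genotype for *Tfrc* and *Fth1* and below them for *Scara5*, and the *Ahr* HKO livers on the control diet lay below the WT livers for *Slc40a1*.

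*Hamp* encodes hepcidin itself. Its expression was 560.2, 431 and 347 CPM in the WT+con livers and 256, 228 and 353 CPM in the WT+EtOH livers. It was 385, 848 and 1502 CPM in the *Ahr* HKO+con livers and 173, 379.9 and 96.4 CPM in the *Ahr* HKO+EtOH livers. Both *Ahr* HKO groups spread widely among their livers, and the lowest *Ahr* HKO+con liver was still above the highest *Ahr* HKO+EtOH liver. Ethanol lowered *Hamp* 4.21-fold in *Ahr* HKO livers (log2 FC -2.07 ± 0.62 (SE), adjusted *P* = 0.0424). In WT the diets overlapped (log2 FC -0.68 ± 0.22 (SE), adjusted *P* = 0.108). The diet changes of the genotypes were not shown to differ (interaction log2 FC -1.40 ± 0.72, adjusted *P* = 0.184). On the control diet *Hamp* measured 912 ± 561 CPM (SD, n = 3) in *Ahr* HKO and 446 ± 107 CPM in WT with overlapping livers (log2 FC 1.03 ± 0.45 (SE), adjusted *P* = 0.125), and on ethanol log2 FC was -0.37 ± 0.46 with an adjusted *P* of 0.682. Leaving out a liver gave log2 FC of -2.76 to -1.51 in *Ahr* HKO and lost the call in 4 of 6 fits: without *Ahr* HKO+con liver 2 (adjusted *P* = 0.0862) or 3 (0.104), and without *Ahr* HKO+EtOH liver 1 (0.113) or 3 (0.103). Without *Ahr* HKO+EtOH liver 2 it was -2.76, and the interaction then passed the test (adjusted *P* = 0.0472). With all livers, the *Ahr* HKO call was also lost in limma on quantile-normalized FPKM (adjusted *P* = 0.0520), and in WT DESeq2 called *Hamp* lower (adjusted *P* = 0.0245). Without *Ahr* HKO+con liver 1 the difference between genotypes on the control diet passed the test (log2 FC 1.40, adjusted *P* = 0.0218).

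Acute phase genes, which answer interleukin-6 as *Hamp* does, moved in the same comparison. The summed CPM of 10 such genes was 23574 to 33957 in *Ahr* HKO+con and 5321 to 6719 in *Ahr* HKO+EtOH, and all 10 were called lower. It was 6815 to 15881 in WT+con and 4861 to 6607 in WT+EtOH, where none was called. There 1 of the 10 had a positive log2 FC, with a median of -0.96. Their part in the *Hamp* result was not tested. All 8 Kupffer cell markers were also called lower in *Ahr* HKO+EtOH, with a summed CPM of 219.6 to 274 against 342 to 966 in *Ahr* HKO+con, and their part was not tested either.

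*Hamp2* lies beside *Hamp* and encodes a second hepcidin peptide. It was 3.60, 1.46 and 8.07 CPM in WT+con and 72.5, 41.0 and 11.02 CPM in WT+EtOH, so every ethanol liver was above every control liver. In *Ahr* HKO livers it was 1.60, 2.15 and 39.9 CPM on the control diet and 35.7, 3.04 and 3.90 CPM on ethanol, where a single high liver stood apart in each group and the groups overlapped. The ethanol diet raised *Hamp2* in WT 9.49-fold (log2 FC 3.25 ± 0.80 (SE), adjusted *P* = 0.0498). That call held in 1 of 6 fits that left out a liver, the fit without WT+EtOH liver 3. It was lost without WT+con liver 1 (adjusted *P* = 0.161), 2 (0.129) or 3 (0.0692, log2 FC 4.04), and without WT+EtOH liver 1 (0.0957, log2 FC 2.57) or 2 (0.0916). With all livers it was lost under upper-quartile scaling (adjusted *P* = 0.0510), with no filter on low counts (0.0581), in a single fit of all 12 libraries (0.152) and in limma on quantile-normalized FPKM (0.0658). In *Ahr* HKO the log2 FC was -0.02 ± 1.38, -2.07 to 2.93 over the 6 fits without a liver, with an adjusted *P* of 0.992, and the interaction was -3.27 ± 1.81 with an adjusted *P* of 0.217. Between genotypes the log2 FC was 1.73 ± 1.23 on the control diet (adjusted *P* = 0.329) and -1.54 ± 1.03 on ethanol (adjusted *P* = 0.430).

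The share of hepcidin reads counted on *Hamp2* was 0.639%, 0.338% and 2.28% in the WT+con livers and 22.1%, 15.3% and 3.02% in the WT+EtOH livers. It was 0.414%, 0.253% and 2.59% in *Ahr* HKO+con and 17.1%, 0.794% and 3.89% in *Ahr* HKO+EtOH. The exact Clopper-Pearson 95% interval was 0.211% to 0.301% for the lowest share and 21.5% to 22.7% for the highest, and covers counting error only, since reads are not independent molecules. *Hamp* remained the main hepcidin messenger in every liver. No stretch of 100 bases of either transcript occurred in another gene's transcripts, although shorter shared stretches remain and the handling of shared reads is not given in the sources used here. With the reads of both genes summed, log2 FC was -0.49 in WT (adjusted *P* = 0.163) and -2.01 in *Ahr* HKO (adjusted *P* = 0.0442), the same calls as for *Hamp* alone.

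**Figure D2:**
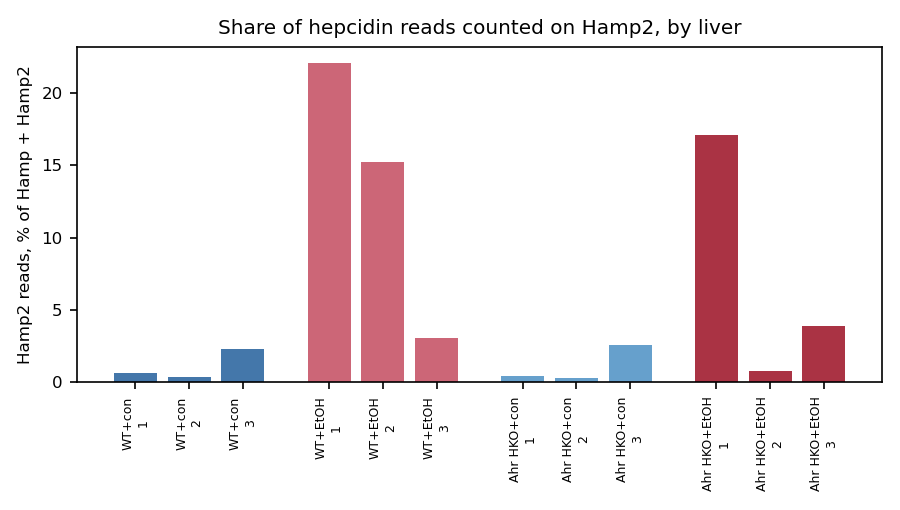
Reads counted on *Hamp2* as a percentage of the reads on *Hamp* and *Hamp2* together, a bar per liver, coloured by group. The bars reached 22.1% and 15.3% in a pair of WT+EtOH livers and 17.1% in 1 *Ahr* HKO+EtOH liver, and stayed at or below 3.89% in the other 9.

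Upstream of hepcidin, *Bmp6*, the endothelial ligand that reports iron load, was 6.90, 4.78 and 5.87 CPM in WT+con and 2.83, 5.76 and 4.33 CPM in WT+EtOH. It was 2.27, 4.21 and 4.09 CPM in *Ahr* HKO+con and 4.24, 2.98 and 4.80 CPM in *Ahr* HKO+EtOH. The *Ahr* HKO+con livers lay below the WT+con livers without overlap, but the difference missed the threshold (log2 FC -0.73 ± 0.27 (SE), adjusted *P* = 0.0764), which DESeq2 passed (adjusted *P* = 0.0389). The summed CPM of 8 sinusoidal endothelial markers was 343 to 423 in WT+con and 380.1 to 400.1 in *Ahr* HKO+con, with 1 of 8 called higher and 0 lower. In the other comparisons of pairs the adjusted *P* values of *Bmp6* were 0.355 to 0.865. *Id1*, a gene switched on by BMP signals, was 6.59, 2.91 and 4.58 CPM in WT+con, 8.50, 6.06 and 4.06 CPM in WT+EtOH, 4.23, 3.60 and 7.68 CPM in *Ahr* HKO+con and 2.07, 4.65 and 5.97 CPM in *Ahr* HKO+EtOH. All 4 groups of *Id1* overlapped, and its adjusted *P* values were 0.479 to 0.810 in the comparisons of pairs of groups. *Id3*, another BMP target, is given with the flagged results below. On the control diet edgeR called it higher in *Ahr* HKO (log2 FC 0.88 ± 0.23 (SE), adjusted *P* = 0.0264). Of 22 tested genes of hepcidin control, 3 were called higher and 6 lower in that comparison. *Tfr2*, the hepatocyte receptor that senses loaded transferrin for the hepcidin pathway, was 425, 539 and 473 CPM in WT+con and 396, 344 and 432 CPM in WT+EtOH. In *Ahr* HKO it was 449, 397 and 392 CPM on the control diet and 479, 418 and 486 CPM on ethanol. Neither diet change of *Tfr2* passed the test (log2 FC -0.29 ± 0.14 in WT and 0.16 ± 0.12 in *Ahr* HKO, adjusted *P* = 0.224 and 0.342), nor did their difference in edgeR (0.45 ± 0.18, adjusted *P* = 0.0899), which DESeq2 called (adjusted *P* = 0.0409).

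Iron uptake is represented by *Tfrc*, *Trf* and *Scara5*. *Tfrc* encodes transferrin receptor 1, which takes loaded transferrin into cells. It was 6.31, 6.57 and 7.40 CPM in WT+con and 22.3, 20.0 and 31.0 CPM in WT+EtOH. It was 9.68, 7.78 and 11.3 CPM in *Ahr* HKO+con and 23.0, 23.8 and 22.4 CPM in *Ahr* HKO+EtOH. All 6 ethanol livers were above all 6 control livers. Ethanol raised *Tfrc* 3.61-fold in WT (log2 FC 1.85 ± 0.18 (SE), adjusted *P* = 0.00266) and 2.41-fold in *Ahr* HKO (log2 FC 1.27 ± 0.15 (SE), adjusted *P* = 0.00252). These calls held in each of the 6 fits per genotype that left out a liver, with log2 FC of 1.65 to 1.97 in WT and 1.14 to 1.40 in *Ahr* HKO. On the control diet the *Ahr* HKO livers were all above the WT livers, with a difference just short of the threshold (log2 FC 0.51 ± 0.16 (SE), adjusted *P* = 0.0538) that passed it without *Ahr* HKO+con liver 2 (adjusted *P* = 0.0233). On ethanol the genotypes overlapped (log2 FC -0.08 ± 0.16, adjusted *P* = 0.811), and the diet changes were not shown to differ (interaction -0.59 ± 0.24, adjusted *P* = 0.1004). DESeq2 called the difference on the control diet (adjusted *P* = 0.0353), as did a single fit of all 12 libraries (0.0434). Limma called the interaction on log2(FPKM + 1) (0.0471) and on log2(FPKM + 0.1) (0.0320). Red cell precursors are rich in this receptor. The summed CPM of 8 erythroid markers was 457 to 892 in WT+con and 207 to 437 in WT+EtOH, and 142 to 289 in *Ahr* HKO+con and 367 to 493 in *Ahr* HKO+EtOH. Single markers spread widely within a group, as *Hba-a2* from 0.107 to 324 CPM in WT+con and *Hbb-bs* from 0 to 98.1 CPM in *Ahr* HKO+con. Of these markers 6 were tested, with 1 called lower with ethanol in WT and 0 called in *Ahr* HKO by edgeR, and *Epb42* was at 0 in every liver of 3 groups and *Slc4a1* in every *Ahr* HKO+EtOH liver. Their part in the *Tfrc* result was not tested.

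*Trf*, transferrin, was 13941, 18807 and 16579 CPM in WT+con, 17032, 13783 and 13813 CPM in WT+EtOH, 14751, 14837 and 13720.1 CPM in *Ahr* HKO+con and 15616, 12324 and 13671 CPM in *Ahr* HKO+EtOH. Its groups overlapped in all 4 comparisons, with log2 FC between -0.19 and -0.06 and adjusted *P* values of 0.488 to 0.825. Of its transcript stretches of 100 bases, 53.2% also belonged to the annotated gene *Gm20425*, so its count is less certain than those of the other members.

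*Scara5* encodes a scavenger receptor that takes up ferritin. It showed the widest range of the 10 genes. It was 13.1, 18.03 and 51.6 CPM in WT+con and fell to 0.283, 0.223 and 1.03 CPM in WT+EtOH, where the counts were 15, 14 and 65 reads, above the 3 counts taken as the smallest detectable level. It was 125, 115 and 58.5 CPM in *Ahr* HKO+con and 3.30, 15.8 and 29.4 CPM in *Ahr* HKO+EtOH. Ethanol lowered *Scara5* in both genotypes without overlap, 52.8-fold in WT (log2 FC -5.72 ± 0.77 (SE), adjusted *P* = 0.00794) and 6.17-fold in *Ahr* HKO (log2 FC -2.63 ± 0.71 (SE), adjusted *P* = 0.0303). On the control diet the *Ahr* HKO livers held 3.61-fold more than WT (log2 FC 1.85 ± 0.54 (SE), adjusted *P* = 0.0377). On ethanol they also lay above WT without overlap, but the call was missed (log2 FC 4.95 ± 0.93, adjusted *P* = 0.0619), as it was for the interaction (3.10 ± 1.12, adjusted *P* = 0.0690). In WT the diet call held in all 6 fits without a liver, at -4.90 without WT+con liver 3 and -6.77 without WT+EtOH liver 3. In *Ahr* HKO it was lost without *Ahr* HKO+con liver 1 (adjusted *P* = 0.0745) or 2 (0.0759) or *Ahr* HKO+EtOH liver 2 (0.0849), and was -3.38 without *Ahr* HKO+EtOH liver 3. The genotype difference on the control diet was lost without WT+con liver 1 (0.0896) or 2 (0.114) or *Ahr* HKO+con liver 1 (0.0859) or 2 (0.0891), and was 2.67 without WT+con liver 3. With all livers it was lost in a single fit of all 12 libraries (0.0736). The difference on ethanol was called by DESeq2 (adjusted *P* = 6.18e-05) and in the single fit (0.0182), and in edgeR without *Ahr* HKO+EtOH liver 1 (adjusted *P* = 0.0324). The interaction was called by DESeq2 (adjusted *P* = 0.0361) and in edgeR without WT+EtOH liver 3 (0.0451) or *Ahr* HKO+EtOH liver 1 (0.0245). Fibroblasts and stellate cells can express *Scara5*, and the summed CPM of 8 of their markers was 230.1 to 299 in WT+con and 334 to 385 in WT+EtOH, with 3 of 8 called higher. In *Ahr* HKO the sum was 227 to 242 on the control diet and 255 to 297 on ethanol, with 2 called higher and 1 lower, and the part of these cells in the *Scara5* results was not tested.

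Iron storage is represented by *Fth1*, the ferritin heavy chain, which carries the 5′ UTR element shown above. It was 1628, 1770.4 and 1564 CPM in WT+con and 4031, 3200.4 and 2835 CPM in WT+EtOH. It was 1823, 1456 and 1892 CPM in *Ahr* HKO+con and 2394, 2362 and 2169 CPM in *Ahr* HKO+EtOH. All ethanol livers were above the control livers of their genotype, and all *Ahr* HKO+EtOH livers were below all WT+EtOH livers. Ethanol raised *Fth1* 2.03-fold in WT (log2 FC 1.02 ± 0.17 (SE), adjusted *P* = 0.0155). In *Ahr* HKO the difference missed the threshold (log2 FC 0.42 ± 0.15 (SE), adjusted *P* = 0.0700). On the control diet the genotypes overlapped (log2 FC 0.06 ± 0.15, adjusted *P* = 0.797), and on ethanol the log2 FC was -0.54 ± 0.16 (adjusted *P* = 0.130). The interaction was -0.60 ± 0.22 (adjusted *P* = 0.0704), past the threshold without WT+EtOH liver 3 (0.0402) or *Ahr* HKO+con liver 2 (0.0387). DESeq2 called the diet difference in *Ahr* HKO (adjusted *P* = 0.0144), the genotype difference on ethanol (0.0105) and the interaction (0.0211), and limma on FPKM called the interaction with each pseudocount and with quantile normalization. The call in WT was lost without WT+con liver 1, 2 or 3 (adjusted *P* = 0.0596, 0.0548 and 0.0677), with log2 FC of 0.87 to 1.13 over the 6 fits without a liver. A messenger level is not a ferritin level, since iron regulatory proteins act on the translation of this messenger, which was not measured.

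*Slc40a1* encodes ferroportin, the exporter that hepcidin removes. It was 126, 132 and 146 CPM in WT+con and 148, 209 and 148 CPM in WT+EtOH. It was 65.0, 83.4 and 47.3 CPM in *Ahr* HKO+con and 126, 87.6 and 89.4 CPM in *Ahr* HKO+EtOH. On both diets all *Ahr* HKO livers were below all WT livers. On the control diet *Slc40a1* was 2.06-fold lower in *Ahr* HKO (log2 FC -1.05 ± 0.20 (SE), adjusted *P* = 0.00879), and this call held in all 6 fits that left out a liver (-1.26 to -0.86). On ethanol the difference missed the threshold (log2 FC -0.74 ± 0.20 (SE), adjusted *P* = 0.113). The ethanol livers were above the control livers in both genotypes, without a call (log2 FC 0.32 ± 0.16, adjusted *P* = 0.243 in WT, and 0.63 ± 0.23, adjusted *P* = 0.0793 in *Ahr* HKO). The difference in *Ahr* HKO passed the threshold without *Ahr* HKO+con liver 2 (adjusted *P* = 0.0455). DESeq2 called it (adjusted *P* = 0.0236), and also the genotype difference on ethanol (0.0125). A single fit of all 12 libraries also called the difference with ethanol in *Ahr* HKO (0.0400). Kupffer cells recycle red cell iron and are rich in ferroportin. The summed CPM of 8 Kupffer cell markers was 384 to 506 in WT+con and 342 to 966 in *Ahr* HKO+con, and edgeR called none of the 8 in that comparison. With ethanol in *Ahr* HKO all 8 were called lower. On ethanol the sum was 348 to 879 in WT and 219.6 to 274 in *Ahr* HKO, with none called, and the part of these cells in the *Slc40a1* results was not tested.

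Counted by comparison, the ethanol diet in WT changed 4 of the 10 genes, with *Hamp2*, *Tfrc* and *Fth1* raised and *Scara5* lowered, where 8.72% of all tested genes were called, 4.24% higher and 4.48% lower. The diets did not overlap for 5 of the 10, and for 32.9% of all tested genes. In *Ahr* HKO the ethanol diet raised *Tfrc* and lowered *Hamp* and *Scara5*, 3 of 10 where 31.2% of all genes were called (15% higher, 16.1% lower), and 5 of 10 did not overlap, against 49.8%. *Ahr* HKO against WT on the control diet gave 2 of 10, *Slc40a1* lower and *Scara5* higher, against 29.7% of all genes (15.3% higher, 14.4% lower), and 4 of 10 without overlap against 47.3%. In the last pair of comparisons the shares of members called did not exceed those of all genes. Members were chosen with earlier results of these data known, so the shares describe the 10 genes and test nothing about them. On the ethanol diet edgeR called 0 of 10 at a background of 1.06% (0.684% higher, 0.378% lower). There 3 of 10 did not overlap, against 27.9%. An unadjusted *P* under 0.05 was reached by 3 of 10, and by 2950 of all 14038 tested genes. DESeq2 called 3 of 10 on ethanol, and over all 14038 genes 718 higher and 803 lower. The interaction called 0 of 10 with edgeR at a background of 22.3% (11.2% higher, 11.1% lower). Its unadjusted *P* was under 0.05 for 4 of 10, and for 5105 of all 14038 tested genes. DESeq2 called the interaction of 3 of 10, and over all 14038 genes 1932 above 0 and 2045 below 0. The median log2 FC of the 10 genes was 0.09, 0.07, 0.10 and -0.24 in these comparisons of pairs, beside 0.01, -0.02, -0.00 and -0.01 over all tested genes. Each group enters more than 1 comparison, so the comparisons are not independent.

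**Figure D3:**
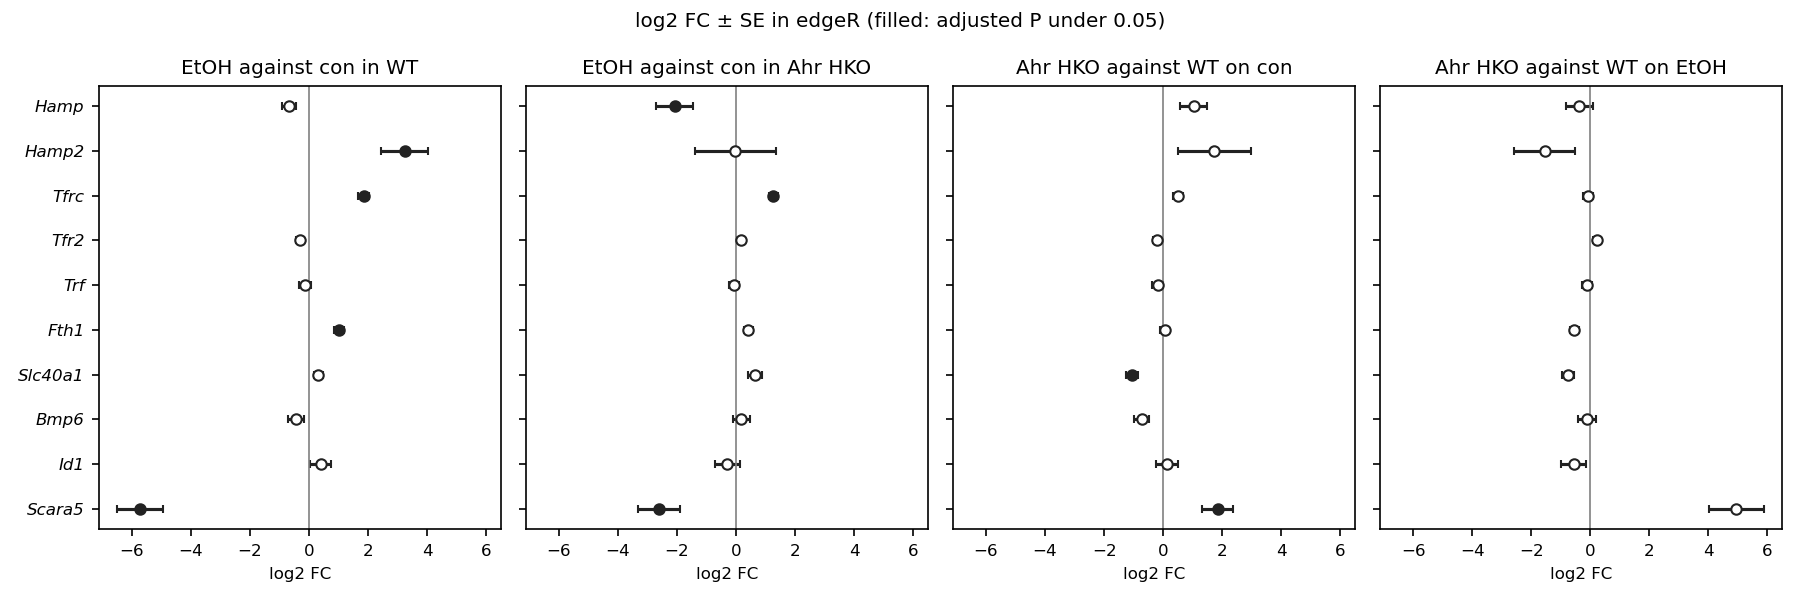
The log2 FC of each of the 10 genes in the 4 comparisons of pairs of groups, with bars of 1 SE from edgeR, filled where the adjusted *P* value was under 0.05. *Tfrc* was called with ethanol in both genotypes, *Scara5* in 3 comparisons, and none on the ethanol diet between genotypes.

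The other genes of iron and heme handling were taken from lists by role, 67 genes of which 64 were tested. Ethanol in WT raised 6 and lowered 1 of them, against the 8.72% of all genes. These were heme oxygenase *Hmox1* (log2 FC 1.66 ± 0.26 (SE), adjusted *P* = 0.0137) and biliverdin reductase *Blvrb* (log2 FC 1.31 ± 0.12 (SE), adjusted *P* = 0.00211) of heme breakdown, the heme transporter *Slc48a1* (log2 FC 1.29 ± 0.09 (SE), adjusted *P* = 0.000940), the ferritin light chain *Ftl1* (log2 FC 1.24 ± 0.17 (SE), adjusted *P* = 0.00868) and the mitochondrial iron importer *Slc25a37* (mitoferrin 1, log2 FC 0.62 ± 0.10 (SE), adjusted *P* = 0.0157). The receptor *Lrp1*, which clears heme bound to hemopexin, was lowered (log2 FC -0.74 ± 0.11 (SE), adjusted *P* = 0.0125). The remaining call, named after its value was seen, was the hepcidin co-regulator *Hfe* (log2 FC 0.55 ± 0.10 (SE), adjusted *P* = 0.0218). *Ftl1*, with an element like that of *Fth1*, was 2395, 2136 and 2133 CPM in WT+con and 6155, 5159 and 4415 CPM in WT+EtOH, and 2236, 1928 and 2022 CPM in *Ahr* HKO+con and 3628, 3632 and 3533 CPM in *Ahr* HKO+EtOH. It rose in *Ahr* HKO as well (log2 FC 0.80 ± 0.13 (SE), adjusted *P* = 0.00620), and the interaction did not pass the test (adjusted *P* = 0.137).

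Ethanol in *Ahr* HKO raised 16 and lowered 19 of the 64 genes, against 31.2% of all genes. Of 22 tested genes of hepcidin control, 2 rose and 7 fell, including *Fgl1*, which encodes a liver protein that opposes BMP signals (log2 FC -2.15 ± 0.42 (SE), adjusted *P* = 0.0107). Of 18 genes of iron and heme uptake and transport, 6 rose and 10 fell. Those that fell included the metalloreductase *Steap4* (log2 FC -3.25 ± 0.38 (SE), adjusted *P* = 0.00252), the transporter *Slc39a14*, which takes up iron not bound to transferrin (log2 FC -1.67 ± 0.19 (SE), adjusted *P* = 0.00239), and the carriers of free hemoglobin and heme, *Hp* (log2 FC -1.75 ± 0.19 (SE), adjusted *P* = 0.00215) and *Hpx* (log2 FC -1.70 ± 0.19 (SE), adjusted *P* = 0.00230). *Steap3*, the reductase that works with *Tfrc* in endosomes, rose (log2 FC 1.64 ± 0.21 (SE), adjusted *P* = 0.00318). *Hp*, *Hpx*, *Fgl1*, *Slc39a14* and *Steap4* are also known to answer inflammatory signals, and the acute phase sums given beside *Hamp* moved in the same direction, with their part not tested. Of 9 genes of storage and mitochondrial iron 4 rose and 2 fell, of 3 iron regulatory protein genes 1 rose, and of 12 genes of heme synthesis and breakdown 3 rose.

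On the control diet *Ahr* HKO livers had 12 of the 64 genes higher and 17 lower than WT, against 29.7% of all genes. *Steap4* was 1887, 1211 and 2760.5 CPM in *Ahr* HKO+con and 97.8, 227 and 157 CPM in WT+con (log2 FC 3.60 ± 0.41 (SE), adjusted *P* = 0.00167). *Slc39a14* (log2 FC 2.02 ± 0.21 (SE), adjusted *P* = 0.00131) and *Hmox1* (log2 FC 1.09 ± 0.17 (SE), adjusted *P* = 0.00417) were higher as well. *Steap3* (log2 FC -1.65 ± 0.13 (SE), adjusted *P* = 0.000861), *Smad9*, a SMAD of the BMP pathway (log2 FC -1.78 ± 0.29 (SE), adjusted *P* = 0.00505), and *Mfsd7c*, also named *Flvcr2* (log2 FC -2.19 ± 0.21 (SE), adjusted *P* = 0.00110), were lower. By role, 3 genes of hepcidin control were higher and 6 lower, and 6 genes of uptake and transport were higher and 5 lower. On the ethanol diet 0 of the 64 were higher and 1 lower, against 1.06%, which was *Slc48a1* at 56.5, 57.9 and 50.7 CPM in *Ahr* HKO+EtOH and 104, 91.3 and 92.8 CPM in WT+EtOH (log2 FC -0.80 ± 0.10 (SE), adjusted *P* = 0.0272). The interaction was called for 18 of the 64, 8 above and 10 below 0, against 22.3% of all genes.

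**Figure D4:**
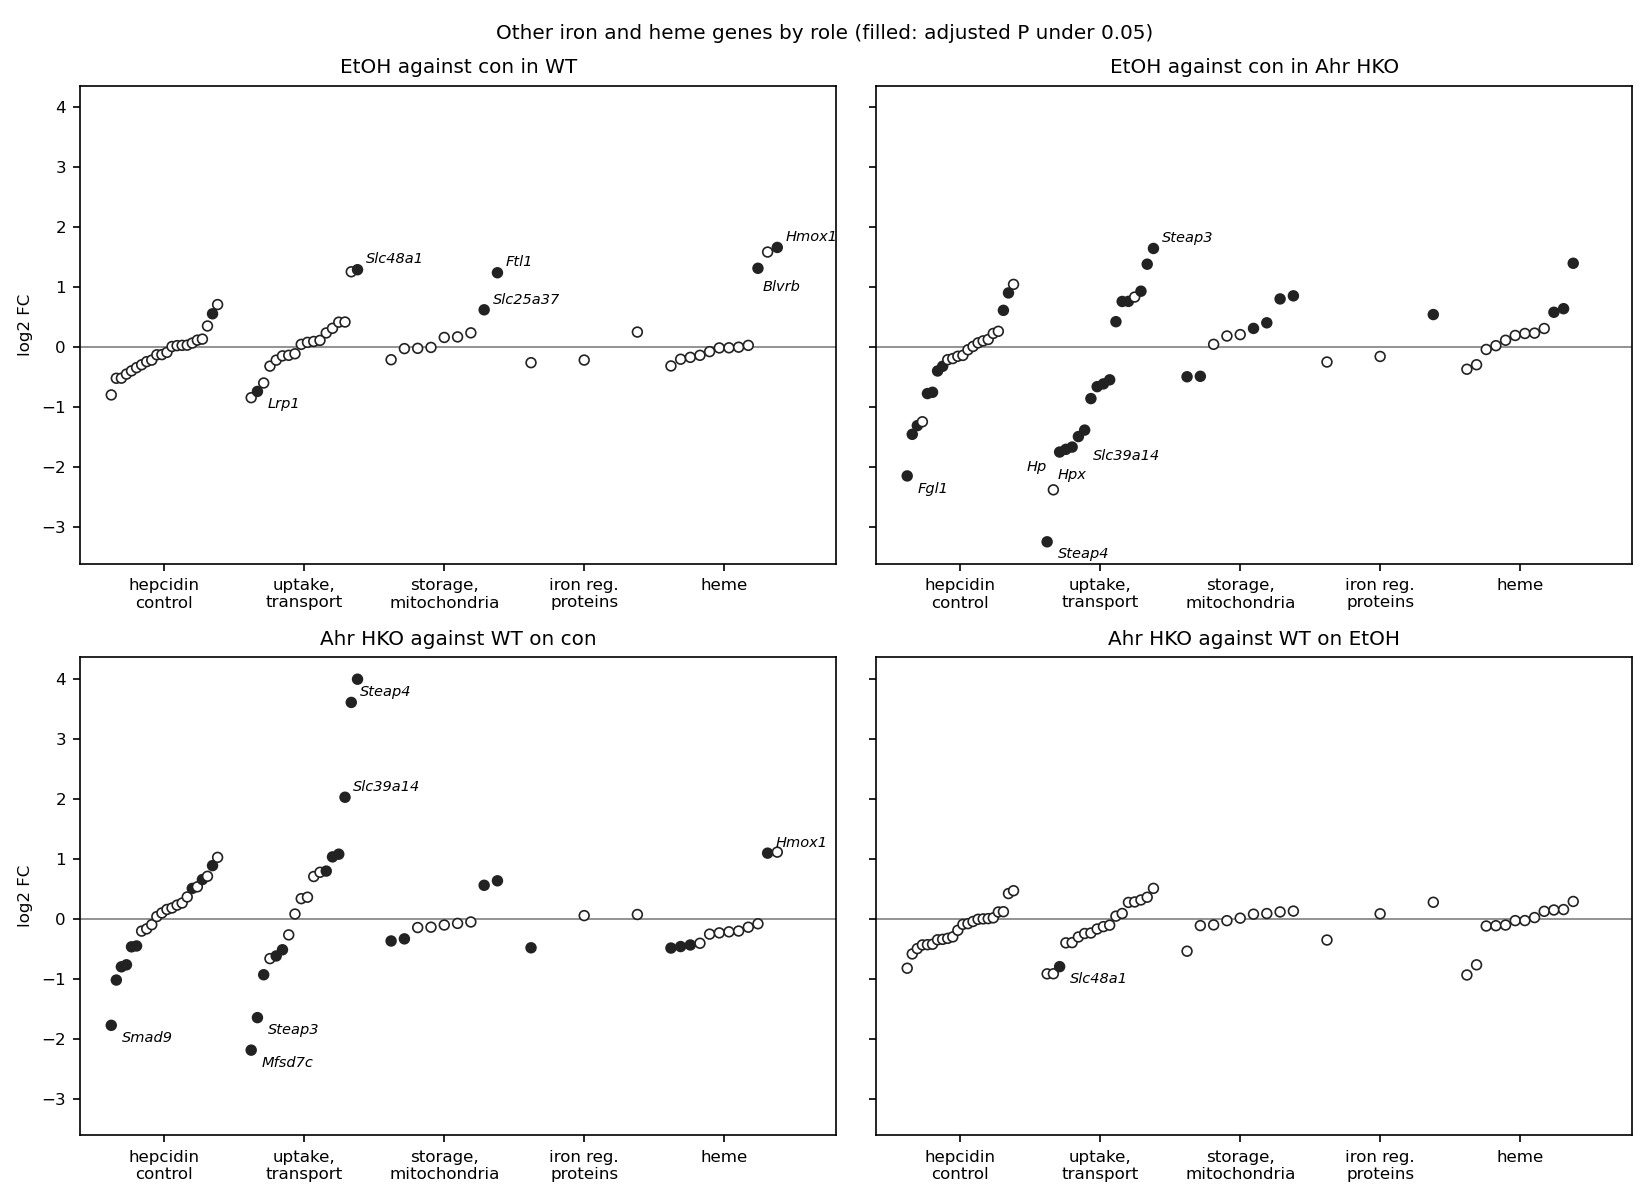
The log2 FC of the 64 other iron and heme genes in each comparison of a pair of groups, ordered by value within each role on the horizontal axis, with filled points for adjusted *P* values under 0.05 and names for the genes chosen by largest difference among those called. Filled points numbered 7 with ethanol in WT, 35 with ethanol in *Ahr* HKO, 29 between genotypes on the control diet and 1 on the ethanol diet.

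For *Hamp*, *Tfrc* and *Scara5*, the genes closest in pattern were found by the root-mean-square difference of centred log2 CPM over the 12 livers, among 11726 genes with a mean CPM of at least 1. For *Tfrc* they were *Irf2bp2* (0.277), *Lgals1* (0.293) and *Blvrb* (0.302), against a spread of *Tfrc* itself of 0.787. For *Hamp* they were *Gm8883* (0.527), *Tmtc2* (0.557) and *Slc41a1* (0.596), against 0.985, so no compared gene lay as near to *Hamp* as these 3 did to *Tfrc*. For *Scara5* they were *C6* (1.25), *Slc10a2* (1.36) and *Serpina4-ps1* (1.37), against 2.54. The livers behind each pattern are the same, and the distances are descriptions with no test.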

How the data were processed

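RNA-seq of 12 livers in 4 groups of 3 was used as labelled. The authors deposited read counts per gene (mm10), without normalization, and FPKM and TPM values scaled by the authors for length and library size. Their processing notes name HISAT2 2.1.0, Bowtie2 2.3.4.1, StringTie 1.3.4d, Trimmomatic 0.38 and FastQC 0.11.7. The counting tool, and the rule for shared reads, are not given in the sources used here. TPM was not used. No pair of libraries had identical counts, and 3 counts corresponded to 0.0404 to 0.0648 CPM.

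Counts were tested with edgeR 4.0.16 in R 4.3.3 (filterByExpr, TMM, quasi-likelihood, 6 libraries for each pair of groups, all 12 for the interaction). The same test was also run on simulated counts, and its outcome there is not given here. FPKM served for levels between genes. Alternatives were DESeq2 1.42.0, limma 3.58.1 on log2(FPKM + 1) or log2(FPKM + 0.1), and other scalings, filters, thresholds, a replicate block and fits without each liver. Members and lists were chosen with earlier results of these data known, and *Flvcr1* and *Flvcr2* were matched as *Mfsd7b* and *Mfsd7c* after the files were read. At most 6 list genes were named per comparison, those with the largest absolute log2 FC among DEGs with a mean count of at least 50. Promoter windows came from RefSeq (GRCm38.p6).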

Additional observations from a re-analysis of the deposited data

Results flagged for a closer look

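The interaction of none of the 10 genes passed the test of edgeR, while DESeq2 called those of *Fth1* (adjusted *P* = 0.0211), *Scara5* (0.0361) and *Tfr2* (0.0409). Among the other iron and heme genes named in the text, 7 did, and the value is the log2 FC (± SE) with ethanol in *Ahr* HKO minus that in WT. *Steap4* had an interaction of -3.10 ± 0.51 (adjusted *P* = 0.00247), from log2 FC of -0.15 ± 0.29 in WT and -3.25 ± 0.38 in *Ahr* HKO. *Slc39a14* had -1.75 ± 0.23 (adjusted *P* = 0.000939), from 0.08 ± 0.12 in WT and -1.67 ± 0.19 in *Ahr* HKO. *Hmox1* had -2.03 ± 0.34 (adjusted *P* = 0.00271), from 1.66 ± 0.26 in WT and -0.37 ± 0.17 in *Ahr* HKO. *Mfsd7b*, the heme exporter also named *Flvcr1*, had -1.38 ± 0.26 (adjusted *P* = 0.00447), from -0.11 ± 0.20 in WT and -1.49 ± 0.18 in *Ahr* HKO. *Id3*, a BMP target like *Id1*, had -1.32 ± 0.33 (adjusted *P* = 0.0164), from 0.01 ± 0.12 in WT and -1.31 ± 0.28 in *Ahr* HKO. *Slc48a1* had -0.53 ± 0.14 (adjusted *P* = 0.0207), from 1.29 ± 0.09 in WT and 0.76 ± 0.12 in *Ahr* HKO. *Steap3* had 1.96 ± 0.28 (adjusted *P* = 0.00110), from -0.32 ± 0.15 in WT and 1.64 ± 0.21 in *Ahr* HKO. For *Hmox1* the livers held 20.2, 15.01 and 22.8 CPM in WT+con, 83.4, 57.3 and 42.7 CPM in WT+EtOH, 37.7, 46.7 and 39.0 CPM in *Ahr* HKO+con and 37.4, 24.3 and 33.9 CPM in *Ahr* HKO+EtOH.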

How the results depend on the processing

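The calls of *Tfrc* with ethanol in both genotypes, of *Scara5* and *Fth1* with ethanol in WT and of *Slc40a1* between genotypes on the control diet held under all of the other tests, scalings and filters run, and the cause of the changes below was not tested. DESeq2 called 5 of the 10 genes with ethanol in *Ahr* HKO, against 2563 higher and 2576 lower among all 14038 tested genes. It called 4 between genotypes on the control diet, against 2463 higher and 2396 lower over all genes. On ethanol it called 3 between genotypes, against 718 higher and 803 lower. For the interaction it called 3, against 1932 above 0 and 2045 below 0. With the replicate block the counts were 3 with ethanol in WT, 1 with ethanol in *Ahr* HKO, 1 and 1 between genotypes on the control and ethanol diets and 0 for the interaction, and over all genes 284 higher and 255 lower with ethanol in WT and 151 higher and 96 lower between genotypes on ethanol. With the block, *Hamp2* was not called with ethanol in WT (adjusted *P* = 0.133), *Hamp* (0.0849) and *Scara5* (0.0715) not with ethanol in *Ahr* HKO and *Scara5* not between genotypes on the control diet (0.0680), while on ethanol *Scara5* was called (0.0187). The replicate numbers were not taken as pairs. Livers of the same number correlated in their deviations with r from -0.13 to -0.01 in 3 comparisons of pairs, and with 0.28, 0.20 and -0.02 between genotypes on ethanol, where livers 1 and 2 correlated best with their own number and liver 3 did not. A single fit of all libraries called 1 gene between genotypes on ethanol, quantile-normalized FPKM 1 there, and limma on FPKM 2 for the interaction with each pseudocount and with quantile normalization. With an adjusted *P* under 0.25 and an FC above 1.5 the counts were 4 and 2 between genotypes on the control and ethanol diets and 5 for the interaction. Over all 14038 tested genes the counts at these thresholds were 3939, 1688 and 4433. Fits without a liver called 2 to 4 with ethanol in WT, 2 in every fit with ethanol in *Ahr* HKO, 1 to 2 and 0 to 1 between genotypes on the control and ethanol diets and 0 to 2 for the interaction. *Hamp* with ethanol in WT was called at 0.05 in DESeq2 and in no other of these fits of all livers (adjusted *P* = 0.0245).

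The direction changed for the following values, none of which edgeR called with all livers. In limma on log2(FPKM + 1), log2(FPKM + 0.1) and quantile-normalized log2(FPKM + 1), the log2 FC of *Trf* was 0.028, 0.028 and 0.82 with ethanol in WT, and its interaction -0.16, -0.16 and -1.05, the last with an adjusted *P* of 0.0387, against -0.14 and 0.09 in edgeR. *Hamp2* with ethanol in *Ahr* HKO was 0.39, 0.46 and 0.43 in these fits and 0.50 with the block. The interaction of *Scara5* was -0.0077 in limma on log2(FPKM + 1), against 3.10 in edgeR. Quantile-normalized FPKM gave -0.059 for *Tfr2* with ethanol in *Ahr* HKO and 0.15 for *Trf* on the control diet, where upper-quartile scaling gave -0.0097 for *Fth1*. Without a liver, log2 FC spanned 0 with ethanol in *Ahr* HKO for *Hamp2* (-2.07 to 2.93), *Bmp6* (-0.046 to 0.36), *Id1* (-0.62 to 0.10) and *Trf* (-0.15 to 0.021), between genotypes on the control diet for *Hamp2* (-1.22 to 2.53), *Id1* (-0.26 to 0.46) and *Fth1* (-0.013 to 0.17), on ethanol for *Bmp6* (-0.33 to 0.18), *Tfrc* (-0.18 to 0.13) and *Trf* (-0.19 to 0.0075), and for the interaction of *Trf* (-0.021 to 0.20).

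Over all genes, edgeR called 595 higher and 629 lower with ethanol in WT, 96 higher and 53 lower between genotypes on ethanol and 1576 higher and 1561 lower for the interaction. DESeq2 called 1190 higher and 1145 lower, 718 higher and 803 lower and 1932 higher and 2045 lower. Limma on log2(FPKM + 1) called 1498 higher and 385 lower, 71 higher and 311 lower and 806 higher and 2640 lower, with medians of all genes at 0.10, -0.13 and -0.14 against 0.01, -0.01 and -0.03. Limma on log2(FPKM + 0.1) called 1556 higher and 403 lower with ethanol in WT and 83 higher and 394 lower between genotypes on ethanol, where a single fit of all libraries called 329 higher and 246 lower and quantile-normalized FPKM 57 higher and 35 lower. Without a liver the lowest counts were 183 higher and 177 lower with ethanol in WT (without WT+con liver 2), 1278 higher and 1310 lower with ethanol in *Ahr* HKO (without *Ahr* HKO+EtOH liver 3), 1340 higher and 1290 lower on the control diet (without WT+con liver 2) and 8 higher and 2 lower on ethanol (without *Ahr* HKO+EtOH liver 3). With 3 livers a group, *Scara5* in WT+EtOH, at 14 to 65 reads, *Hamp2*, from 82 reads, and *Bmp6*, from 139 reads a liver, had the lowest counts among the 10 genes.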
